A study of Rattus norvegicus with 9 samples.

Results

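The growth arrest genes Cdkn1a, Gadd45a, Btg1 and Btg2 were followed in rat lung after mechanical ventilation, oxygen or both. All probe sets of the deposited values table annotated to 1 of the 4 genes were taken, which gave 8 of 8799 probe sets. Gadd45a had 4, Btg1 had 2 and Cdkn1a had 2, and none was annotated to Btg2 in the table used here. After 59 control probe sets and the dimmest 40% had been left out, 6 of the 8 remained among the 5244 tested, namely the 4 of Gadd45a and the 2 of Btg1.

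These genes slow or stop the cell cycle when cells are stressed. Cdkn1a encodes p21, which binds and blocks cyclin-dependent kinases and is induced by DNA damage. Gadd45a encodes a small acidic stress sensor that binds PCNA, p21 and the stress kinase MAP3K4, and that is induced by DNA damage and by other stresses. Btg1 and Btg2 encode antiproliferative proteins that bind the CCR4-NOT deadenylase and promote mRNA decay. In lung, high oxygen and stretch of the air spaces are known causes of cell stress and injury.

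The study comprised 4 groups of rat lung tissue, named here as in the titles. They are mechanical ventilation with 100% oxygen (Ven100), mechanical ventilation with 21% oxygen (Ven21), spontaneous breathing with 100% oxygen (NonVen100) and spontaneous breathing with 21% oxygen (NonVen21), the last being the untreated setting. Total RNA was hybridised to 9 arrays covering 8 samples, 2 per group, which the titles name by the letters a and b. Letter b of Ven100 had 2 arrays, A and B, which were averaged and counted once. No label says that the letters are separate animals. If they are not, the p-values rest on technical scatter alone. Strain, age, tidal volume and duration are not given in the labels used here.

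The arrays were scaled alike, with trimmed means of 800.5 to 801.1 intensity units, while the bright end differed, with 99th percentiles of 7111 to 8352 on the 3 Ven100 arrays and of 9934 to 14547 elsewhere. Surfactant and other lung epithelial markers were bright in every sample, with a summed intensity over 7 probe sets of 40395 to 44227 in Ven100, 64770 to 69274 in Ven21, 55026 to 70385 in NonVen100, and 77962 to 92269 in NonVen21. Markers of other tissues set single groups apart. The sum of 9 T lymphocyte probe sets was 24400 to 26286 in the lungs ventilated with 21% oxygen and 1320 to 2120 in the samples of the other 3 groups. The sum of 9 skeletal muscle probe sets was 25158 to 25804 in the lungs breathing 100% oxygen spontaneously and 2172 to 7714 in the others. In bulk tissue, a change in the number of cells of a type and a change in RNA per cell cannot be told apart. The descriptions of 4 arrays, both of spontaneous breathing with 21% oxygen, letter a of ventilation with 100% oxygen and array B of its letter b, carry a line for a lot that names no lot. This line is called the lot line here.

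The promoters of the 2 genes with tested probe sets are shown because Gadd45a changed with ventilation and Btg1 passed no test. The windows are the 250 bases before the annotated start in RefSeq on the rat build GRCr8, where all 4 genes matched. They are Gadd45a, chr4:97486800-97487049 on the minus strand, and Btg1, chr7:33227899-33228148 on the plus strand, each written 5′ to 3′ with motif matches in capitals.
Gadd45a: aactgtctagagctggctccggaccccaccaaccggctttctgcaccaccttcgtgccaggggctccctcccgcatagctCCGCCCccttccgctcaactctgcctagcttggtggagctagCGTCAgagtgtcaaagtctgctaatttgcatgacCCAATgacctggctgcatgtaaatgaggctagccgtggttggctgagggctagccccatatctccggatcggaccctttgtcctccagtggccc
Btg1: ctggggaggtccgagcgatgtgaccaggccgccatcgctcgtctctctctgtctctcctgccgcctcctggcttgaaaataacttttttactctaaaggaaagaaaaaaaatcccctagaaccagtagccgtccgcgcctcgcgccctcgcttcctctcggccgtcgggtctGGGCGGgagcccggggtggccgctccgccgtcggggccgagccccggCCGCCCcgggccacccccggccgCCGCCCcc

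The letters searched on both strands were TGACG for the CRE half-site, TGANTCA for the AP-1 site, CCAAT for the box of that name, TATAAA for the TATA box, GGGCGG for the Sp1 box and ACGTG for the hypoxia core. The CRE half-site and the hypoxia core can share letters, and no match in the Gadd45a or Btg1 window overlapped another. The Gadd45a window held an Sp1 box from 170, a CRE half-site from 128 and a CCAAT box from 94 bases before the start. The Btg1 window held 3 Sp1 boxes, from 78, 31 and 8 bases before the start, and none of the other motifs. Of 33469 rat promoter windows of this length, 30.5% held an Sp1 box, 18.2% a CRE half-site and 34.0% a CCAAT box. The G and C share was 59.6% for Gadd45a and 68.4% for Btg1, against a median of 51.2% over all windows. These matches describe the sequence only. The window of Cdkn1a held a CRE half-site from 243 bases before the start, and that of Btg2 held 2 CRE half-sites from 201 and 198, which overlap, 2 CCAAT boxes, and 3 Sp1 boxes from 150, 145 and 138, of which the first 2 overlap.

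Gadd45a was the member that changed, and it rose with mechanical ventilation at both oxygen levels. With 100% oxygen, 3 of its 4 probe sets rose in ventilated over spontaneously breathing lungs, by 0.56 to 1.47 on the log2 scale, where 16.6% of all tested probe sets were called higher. With 21% oxygen, 2 of 4 rose, by 1.41-fold and 1.58-fold, where 7.00% were called higher. Both counts became 0 when the lot line was a block and the 9 arrays were kept apart. Oxygen moved none of the 4 past the threshold under either way of breathing, and no interaction between ventilation and oxygen passed. The 4 probe sets form 2 pairs that share a target sequence each, L32591mRNA_at with L32591mRNA_g_at and rc_AI070295_at with rc_AI070295_g_at, so they are not 4 independent measurements.

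Probe set L32591mRNA_at read 1979 and 2029 intensity units in Ven100 and 1939 and 2058 in Ven21. It read 1336 and 1362 in NonVen100 and 1088 and 1426 in NonVen21. All 4 ventilated samples lay above all 4 spontaneously breathing ones, and the oxygen groups overlapped within each way of breathing. How many of all tested probe sets separate the 8 samples by ventilation in this way was not counted. The group means were 2004 ± 35.4 in Ven100, 1998 ± 84.1 in Ven21, 1349 ± 17.9 in NonVen100 and 1257 ± 239 in NonVen21 (SD, n = 2 each).

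Probe set L32591mRNA_g_at read 2928 and 2515 in Ven100 and 2736 and 2862 in Ven21. It read 2254 and 2363 in NonVen100 and 1919 and 2028 in NonVen21. Again all ventilated samples lay above all others, and among the spontaneously breathing lungs both samples with 100% oxygen lay above both with 21%.

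Probe set rc_AI070295_at, a dimmer one whose mean stood at the 52.3rd percentile of all probe sets, read 296 and 270.1 in Ven100 and 742 and 493 in Ven21. It read 79.0 and 70.3 in NonVen100 and 138 and 352 in NonVen21. Its order was ventilated with 21% oxygen highest and spontaneous with 100% oxygen lowest, with the other two groups overlapping in between. The arrays A and B of one ventilated sample gave 182 and 358, a wider gap than that between the 2 samples of the group.

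Probe set rc_AI070295_g_at read 523 and 646 in Ven100 and 1027 and 791 in Ven21. It read 332 and 191 in NonVen100 and 399 and 585 in NonVen21. The order of the groups was the same as for its partner.

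**Figure D1:**
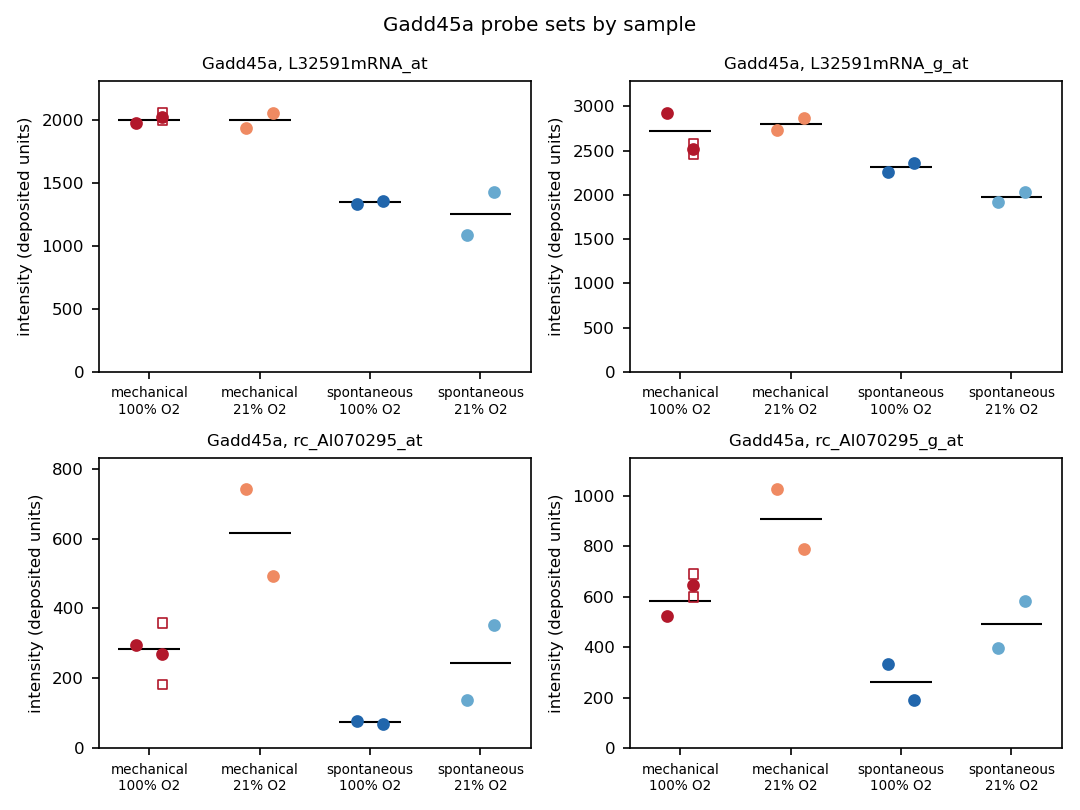
Deposited intensity (vertical axis, linear, from 0) of the 4 Gadd45a probe sets in each of the 4 groups. Filled points are samples, open squares are arrays A and B of the sample that had 2 arrays, and horizontal lines are group means of 2 samples; in the upper panels all 4 ventilated samples sit above the others, and in the lower panels the 2 samples ventilated with 21% oxygen are highest.

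The tests were made on log2 of intensity plus 40, which understates changes of dim probe sets, with 1 limma model over all 5244 probe sets, and a call was an adjusted p under 0.05. For ventilation with 100% oxygen, mechanical minus spontaneous, 26.9% of all tested probe sets were called, 16.6% as higher and 10.4% as lower. Among the members 3 of 6 were called, all of Gadd45a and all higher. L32591mRNA_at rose by 0.56 ± 0.14 on the log2 scale (SE, 95% interval 0.22 to 0.89, 1.47-fold, adjusted p = 0.026). rc_AI070295_at rose by 1.47 ± 0.37 (0.61 to 2.32, adjusted p = 0.024). No fold is given for it, since its NonVen100 readings lay under the filter limit of 112 units, and the difference was 1.78 with an offset of 8 and 1.21 with one of 80. rc_AI070295_g_at rose by 1.08 ± 0.28 (0.43 to 1.73, 2.12-fold, adjusted p = 0.026). L32591mRNA_g_at had a difference of 0.23 ± 0.12 (interval -0.04 to 0.50) and an adjusted p of 0.19. The median difference of the 6 tested member probe sets was 0.39, against 0.13 for all tested probe sets, a median that quantile normalization moved to -0.0097.

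The sign of the 3 called differences was positive in every alternative tried, but the calls were not stable. L32591mRNA_at was called in 12 of 21 alternatives, rc_AI070295_at in 11 of 20 and rc_AI070295_g_at in 13 of 21. The count of members called fell to 0 without either Ven100 sample or without letter b of NonVen100, and to 1 without letter a of NonVen100. With the lot line as a block over the 9 arrays, L32591mRNA_at differed by 0.55 at an adjusted p of 0.095, rc_AI070295_at by 0.96 at 0.22 and rc_AI070295_g_at by 1.32 at 0.052. Within the arrays without the lot line, where Ven100 has a single array whose spread is taken from the other groups, the adjusted p was 0.065 for L32591mRNA_at, 0.10 for rc_AI070295_at and 0.055 for rc_AI070295_g_at. Skeletal muscle markers differed between the same groups, with 7 of 9 lower under ventilation and summed intensities of 2172 to 2420 against 25158 to 25804. Heart markers were lower for 6 of 7, with sums of 12299 to 12820 against 25732 to 26604. Brown fat markers were lower for 3 of 4, with sums of 1998 to 3401 against 6457 to 6637, and red cell markers for 2 of 2, with sums of 8864 to 10961 against 17598 to 23270. Squamous epithelium markers were lower for 1 of 2 tested, with sums of 162 to 634 against 7204 to 7620, Krt4 being at or below 0 in Ven100. Of the lung epithelial markers 3 of 7 were lower and 1 was higher, and of the neutrophil markers 2 of 5 were lower and 1 was higher. The part of these tissues in the Gadd45a difference was not tested.

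For ventilation with 21% oxygen, 14.5% of all tested probe sets were called, 7.00% as higher and 7.49% as lower, and 2 of the 6 members were called, both Gadd45a and both higher. L32591mRNA_at rose by 0.66 ± 0.14 (SE, 95% interval 0.33 to 1.00, 1.58-fold, adjusted p = 0.022). L32591mRNA_g_at rose by 0.50 ± 0.12 (0.22 to 0.77, 1.41-fold, adjusted p = 0.031). rc_AI070295_at had a difference of 1.29 ± 0.37 (0.44 to 2.14) at an adjusted p of 0.054, and rc_AI070295_g_at of 0.85 ± 0.28 (0.20 to 1.49) at 0.083. The member median was 0.58, against -0.06 over all tested probe sets.

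In this comparison every array of the ventilated group lacks the lot line and every array of the other group has it. With the lot line as a block, which is estimated through the group that holds arrays of both kinds, L32591mRNA_at differed by 0.68 at an adjusted p of 0.19 and L32591mRNA_g_at by 0.66 at 0.12. Both differences were positive in all 20 alternatives, and the calls were made in 14 and 12 of them. The count of members called was 0 without either Ven21 sample or without letter a of NonVen21. T lymphocyte markers moved with this comparison, 8 of 8 tested being higher, with sums of 24400 to 26286 against 1992 to 2120. Brown fat markers were higher for 3 of 4, with sums of 13904 to 14996 against 4312 to 4574, and neutrophil markers for 3 of 5, with sums of 22781 to 22920 against 18066 to 19769. Of the skeletal muscle markers 2 of 9 were higher. The highest readings of the rc_AI070295 pair were in Ven21 too, and the part of these cells in the differences of either Gadd45a pair was not tested.

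Both samples of the ventilated group lay above both spontaneously breathing samples for 4 of 4 Gadd45a probe sets at 100% oxygen and again for 4 of 4 at 21%. Such a separation upward was found for 40.5% of all tested probe sets at 100% oxygen and 26.8% at 21%, and one downward for 25.2% and 34.9%.

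Ventilation and 100% oxygen together were set against spontaneous breathing with 21% oxygen, and 14.5% of all tested probe sets were called, 7.49% as higher and 7.02% as lower. Among the members 2 of 6 were called, both of the L32591mRNA pair. L32591mRNA_at rose by 0.67 ± 0.14 (SE, 95% interval 0.33 to 1.00, 1.59-fold, adjusted p = 0.019) and L32591mRNA_g_at by 0.45 ± 0.12 (0.18 to 0.73, 1.37-fold, adjusted p = 0.040). The rc_AI070295 pair had differences of 0.26 ± 0.37 and 0.24 ± 0.28, with adjusted p of 0.68 and 0.61. This comparison shares its groups with those above. Lung epithelial markers were lower for 5 of 7, with sums of 40395 to 44227 in Ven100 against 77962 to 92269 in NonVen21. Skeletal muscle markers were lower for 6 of 9, with sums of 2172 to 2420 against 5193 to 5387, and brown fat markers for 3 of 4, with sums of 1998 to 3401 against 4312 to 4574. Neutrophil markers were higher for 2 of 5 and lower for 1, and T lymphocyte markers were lower for 1 of 8. Red cell, macrophage and squamous epithelium markers were lower for 1 of 2 tested each. Their sums were 8864 to 10961 against 21490 to 25145, 6317 to 6659 against 11172 to 16003, and 162 to 634 against 1376 to 1883. The part of these tissues was not tested. Within the arrays that have the lot line the L32591mRNA pair differed by 0.68 and 0.47, with adjusted p of 0.070 and 0.081. L32591mRNA_at was called in 14 of 21 alternatives and L32591mRNA_g_at in 7 of 21. The count of members called was 0 without letter a of Ven100 or of NonVen21, and 1 without any other sample. Both Ven100 samples lay above both NonVen21 samples for this pair, as for 35.4% of all tested probe sets, and 22.4% were separated downward.

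Oxygen was compared within each way of breathing, 100% minus 21%. Under mechanical ventilation 35.1% of all tested probe sets were called, 20.7% as higher and 14.4% as lower, or 1085 and 756 probe sets, which became 816 and 864 after quantile normalization. Under spontaneous breathing 16.8% were called, 7.06% as higher and 9.71% as lower. In limma's fit 0 of the 6 member probe sets were called in either, and at an unadjusted p under 0.05 there were 1 under ventilation and 2 under spontaneous breathing, all lower and all of the rc_AI070295 pair. The L32591mRNA pair differed by 0.0040 ± 0.14 and -0.04 ± 0.12 under ventilation, and by 0.11 ± 0.14 and 0.22 ± 0.12 under spontaneous breathing. The rc_AI070295 pair was lower with 100% oxygen in both settings without passing the threshold. rc_AI070295_at differed by -1.03 ± 0.37 (95% interval -1.88 to -0.18, adjusted p = 0.063) under ventilation and by -1.21 ± 0.37 (-2.06 to -0.36, adjusted p = 0.060) under spontaneous breathing. rc_AI070295_g_at differed by -0.60 ± 0.28 (-1.25 to 0.05, adjusted p = 0.13) and -0.84 ± 0.28 (-1.49 to -0.19, adjusted p = 0.078). In both settings the samples with 100% oxygen lay below those with 21% for both probe sets of this pair, as they did for 28.6% and 33.6% of all tested probe sets. Separation upward was found for 42.7% under ventilation and 27.3% under spontaneous breathing, and L32591mRNA_g_at was separated so under spontaneous breathing. Called in 7 of 20 alternatives under ventilation, rc_AI070295_at sits near the threshold there. The pairs were not tested against each other. Under spontaneous breathing every array with 21% oxygen has the lot line and every array with 100% oxygen lacks it. Over 19 alternatives rc_AI070295_at ranged there from -1.78 to -0.49. With oxygen under ventilation T lymphocyte markers were lower for 7 of 8 and skeletal muscle markers for 7 of 9. Brown fat markers were lower for 3 of 4, with sums of 1998 to 3401 in Ven100 against 13904 to 14996 in Ven21. Lung epithelial markers were lower for 4 of 7 and heart markers for 3 of 7. Neutrophil markers were lower for 3 of 5 and higher for 1, and red cell and macrophage markers were lower for 1 of 2 tested each. Under spontaneous breathing skeletal muscle markers were higher for 7 of 9, heart markers for 4 of 7 and brown fat markers for 3 of 4. Neutrophil markers were higher there for 1 of 5, and red cell and squamous epithelium markers for 1 of 2 tested each. Lung epithelial markers were lower for 1 of 7 and T lymphocyte markers for 1 of 8. The part of these tissues was not tested.

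The interaction asks whether the oxygen difference depended on ventilation, which is the same as whether the ventilation difference depended on oxygen. It was called for 27.4% of all tested probe sets, 16.9% as higher and 10.5% as lower, or 888 and 551 probe sets, which became 714 and 680 after quantile normalization. Limma called 0 of the 6 member probe sets, and 0 had an unadjusted p under 0.05. For L32591mRNA_at it was -0.11 ± 0.21 (95% interval -0.58 to 0.36, adjusted p = 0.73), and for L32591mRNA_g_at -0.27 ± 0.17 (-0.65 to 0.12, adjusted p = 0.27). For rc_AI070295_at it was 0.18 ± 0.52 (-1.03 to 1.38) and for rc_AI070295_g_at 0.24 ± 0.40 (-0.68 to 1.15). Over the alternatives rc_AI070295_at ranged from -1.05 to 0.75, with the same sign in 12 of 18. rc_AI070295_g_at ranged from -0.11 to 0.76, with the same sign in 15 of 19. Intervals of this width do not show that ventilation acted alike at both oxygen levels.

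**Figure D2:**
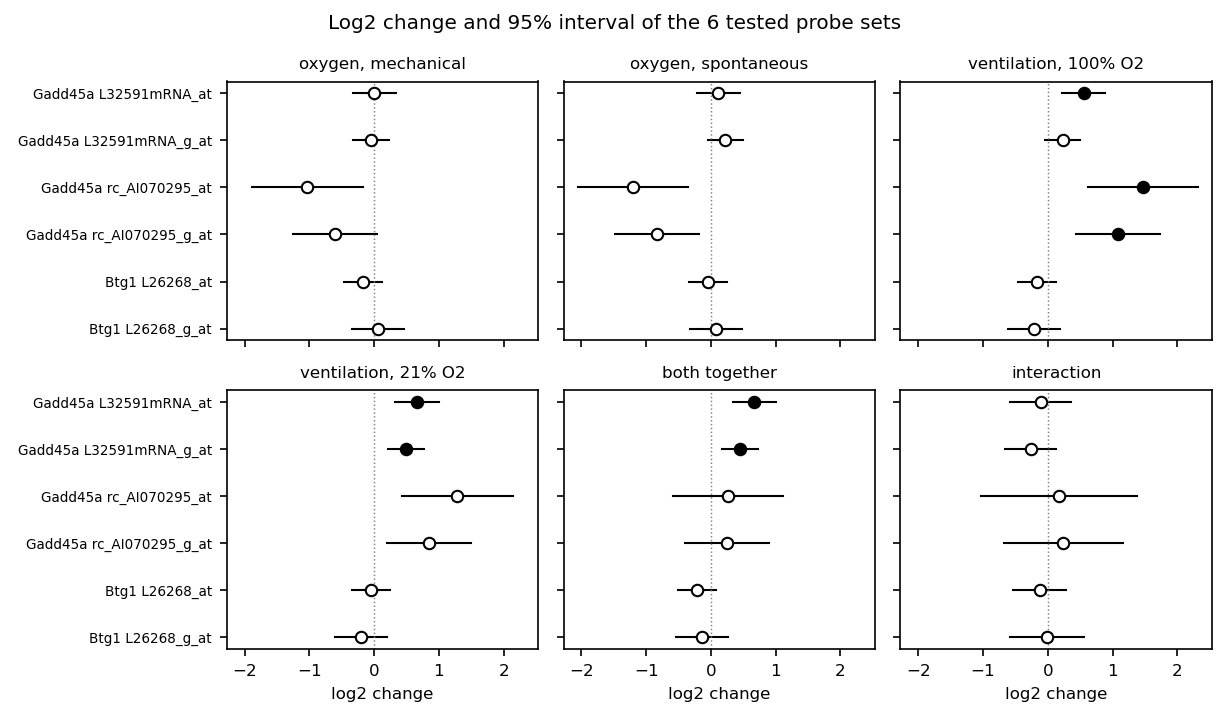
Log2 change (horizontal axis) of the 4 Gadd45a and 2 Btg1 probe sets in the 6 comparisons, with 95% intervals as bars and called changes as filled points. The filled points are all of Gadd45a, 3 for ventilation with 100% oxygen and 2 each for ventilation with 21% oxygen and for both together.

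Across the 8 samples the log2 levels of the probe sets within a pair went together, with r = 0.90 for the L32591mRNA pair and r = 0.95 for the rc_AI070295 pair. Between the pairs r ranged lower, at 0.71 for the 2 sets ending in _at and 0.46 for the 2 ending in _g_at. The samples share 4 groups, so these are descriptions.

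Btg1 was among the brightest genes, with probe sets at the 96.6th and 95.1st percentiles, and no comparison moved it past the threshold. Probe set L26268_at read 6219.9 and 6080.3 in Ven100 and 7471 and 6431 in Ven21. It read 6563 and 7311 in NonVen100 and 6749 and 7582 in NonVen21. The 2 Ven100 samples were the lowest of all 8, and the other 3 groups overlapped.

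Probe set L26268_g_at, which shares the target of L26268_at, read 4971 and 4848 in Ven100 and 5402 and 4074 in Ven21. It read 5132 and 6322 in NonVen100 and 4866 and 5961 in NonVen21. The ranges of neighbouring groups in its order overlapped, and its lowest sample was one ventilated with 21% oxygen.

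For ventilation with 100% oxygen, L26268_at differed by -0.17 ± 0.13 (SE, 95% interval -0.46 to 0.12, adjusted p = 0.36), and both Btg1 probe sets had both ventilated samples below both others, as 25.2% of all tested probe sets did. For ventilation with 21% oxygen it differed by -0.05 ± 0.13 (-0.34 to 0.24, adjusted p = 0.84), and for both together by -0.22 ± 0.13 (-0.51 to 0.07, adjusted p = 0.30). The adjusted p of the 2 probe sets lay between 0.30 and 0.97 over the 6 comparisons. Under quantile normalization the sign of L26268_at turned, to 0.22 for ventilation with 100% oxygen and 0.20 for both together, without a call, so no direction is given for Btg1.

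Cdkn1a stood at the dim end of the array. Probe set L41275cds_s_at read between -159 and 72.1 units and was at or below 0 on 5 of 9 arrays, while U24174_at read between -364 and 62.9 and was at or below 0 on 8 of 9. Their means stood at the 20.0th and 11.9th percentiles, under the filter limit of 112 units, so neither was tested and no fold is given.

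L41275cds_s_at read -0.88 and 56.4 in Ven100, -86.6 and 64.3 in Ven21, -34.2 and -159 in NonVen100, and -76.9 and 50.7 in NonVen21. U24174_at read -266 and -18.3 in Ven100, -119 and -236 in Ven21, -260.1 and -227 in NonVen100, and -364 and -119 in NonVen21. The samples scattered around or under 0 in every group, and a p21 difference was not detectable with these probe sets. No probe set was annotated to Btg2, so it has no values here.

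**Figure D3:**
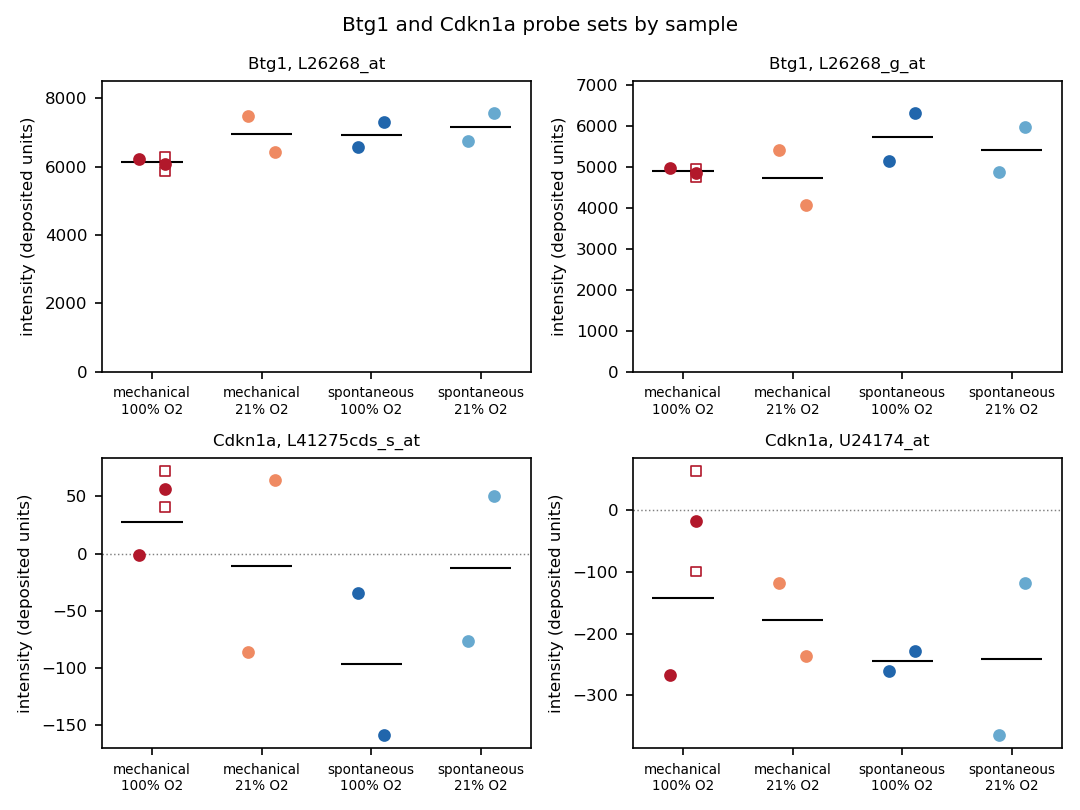
Deposited intensity (vertical axis, linear) of the 2 Btg1 and 2 Cdkn1a probe sets by group, drawn as for Gadd45a. The Btg1 samples lie between 4074 and 7582 units, with the 2 Ven100 samples lowest for L26268_at, while the Cdkn1a samples scatter about 0 or below it.

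Around the members, 5 lists of related genes were read from the same fit, holding 75 genes, of which 31 had a probe set and 26 were tested at their brightest one. Gadd45b, Gadd45g and Tob1 had no annotated probe set in the table used here. The lists are described by counts, beside the shares of all probe sets given above.

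Of 23 listed DNA damage response genes 5 had a probe set and 3 were tested. Of these 3, 2 rose with ventilation at 21% oxygen, against 7.00% of all tested probe sets. The same 2 fell with oxygen under ventilation, against 14.4%. Ccng1, cyclin G1, which DNA damage induces, averaged 2568 ± 84.0 in Ven100, 3438 ± 49.1 in Ven21, 2942 ± 26.3 in NonVen100 and 2591 ± 244 in NonVen21 (SD, n = 2 each). It rose by 0.41 ± 0.11 with ventilation at 21% oxygen (adjusted p = 0.048, called in 5 of 20 alternatives). Its interaction was -0.60 ± 0.16 (adjusted p = 0.026, called in 11 of 19 alternatives). Pcna, the sliding clamp of DNA synthesis and a partner of Gadd45a and p21, averaged 2477 ± 26.8 in Ven100, 4150.4 ± 242 in Ven21, 2815 ± 266 in NonVen100 and 2664.5 ± 45.9 in NonVen21. It rose by 0.63 ± 0.12 with ventilation at 21% oxygen (adjusted p = 0.012), and its interaction was -0.81 ± 0.16 (adjusted p = 0.0088). Mdm2, a ubiquitin ligase, averaged 1048 ± 86.7 in Ven100, 1000.1 ± 12.4 in Ven21, 906 ± 153 in NonVen100 and 788 ± 86.8 in NonVen21 and passed no test, with 0.40 ± 0.16 for both together at an adjusted p of 0.15.

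Of the other CDK inhibitors 3 were tested and 0 were called in any of the 6 comparisons by limma, and 0 had an unadjusted p under 0.05. Cdkn1b, which encodes p27, averaged 231 ± 32.9 in Ven100, 328 ± 1.98 in Ven21, 232 ± 15.1 in NonVen100 and 209 ± 91.1 in NonVen21. Its difference for both together was 0.17 ± 0.28 at an adjusted p of 0.73.

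Of the Gadd45 partners and stress arrest genes 5 were tested. With ventilation at 100% oxygen Ppp1r15a, Gas6 and Mapk14 rose, 3 of 5, against 16.6% of all tested probe sets, and for both together 2 rose, Ppp1r15a and Ddit3. Ppp1r15a, known as Gadd34 and a regulator of the phosphatase that restores translation after stress, averaged 1939 ± 266 in Ven100, 968 ± 22.5 in Ven21, 935 ± 14.7 in NonVen100 and 1225.5 ± 148 in NonVen21. The Ven100 samples were the highest. It rose by 1.02 ± 0.15 with ventilation at 100% oxygen (adjusted p = 0.0036), by 0.64 ± 0.15 for both together (adjusted p = 0.023), and its interaction was 1.34 ± 0.21 (adjusted p = 0.0030).

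Ddit3, which encodes the stress factor CHOP, also known as Gadd153, followed oxygen. It averaged 1617 ± 72.7 in Ven100, 1176 ± 23.1 in Ven21, 1599.9 ± 11.2 in NonVen100 and 955 ± 183 in NonVen21. Both oxygen groups lay above both others, and how many of all tested probe sets separate so was not counted. Separation upward with oxygen was found for 42.7% of all tested probe sets under ventilation and for 27.3% under spontaneous breathing. Ddit3 rose by 0.75 ± 0.15 for both together (adjusted p = 0.013), by 0.73 ± 0.15 with oxygen under spontaneous breathing (adjusted p = 0.016) and by 0.45 ± 0.15 with oxygen under ventilation (adjusted p = 0.048, called in 6 of 21 alternatives). Its difference for ventilation with 100% oxygen was 0.01 ± 0.15 (adjusted p = 0.96).

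Gas6, a growth arrest-specific ligand of the TAM receptor kinases, averaged 2155 ± 70.8 in Ven100, 2077 ± 62.9 in Ven21, 1216 ± 12.5 in NonVen100 and 2579 ± 52.7 in NonVen21, so NonVen100 was the low group. It fell by 1.06 on the log2 scale with oxygen under spontaneous breathing (adjusted p = 8.1e-04), rose by 0.80 ± 0.11 with ventilation at 100% oxygen (adjusted p = 0.0026), and its interaction was 1.11 ± 0.15 (adjusted p = 0.0020). Mapk14, the p38 stress kinase that acts downstream of Gadd45 proteins, rose by 0.60 ± 0.14 with ventilation at 100% oxygen (adjusted p = 0.018), and its interaction was 0.70 ± 0.20 (adjusted p = 0.031, called in 8 of 19 alternatives).

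Btg3, a further BTG family member, was the 1 tested gene of 9 listed in its family. It averaged 1669 ± 45.1 in Ven100, 1229 ± 129 in Ven21, 1606 ± 32.1 in NonVen100 and 1196 ± 28.8 in NonVen21. The 4 samples with 100% oxygen lay above the 4 with 21%, and how many of all tested probe sets separate so was not counted. It rose by 0.43 ± 0.12 with oxygen under ventilation (adjusted p = 0.028) and by 0.47 ± 0.12 for both together (adjusted p = 0.041, called in 7 of 21 alternatives), with 0.41 ± 0.12 under spontaneous breathing at an adjusted p of 0.055. Its differences for ventilation were 0.05 ± 0.12 with 100% oxygen and 0.03 ± 0.12 with 21% oxygen.

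Of the cyclins, CDKs and proliferation genes 14 were tested. With ventilation at 21% oxygen Cdk1, Cdk4, Ccnb1, Top2a and Mcm6 rose, 5 in all, against 7.00% of all tested probe sets called higher. Of these calls Ccnb1 was made in 17 of 19 alternatives, Cdk1 and Top2a in 14 of 20 each, Mcm6 in 6 of 20 and Cdk4 in 4 of 20. With oxygen under ventilation 2 rose, Ccnd1 and Rbl2, and 5 fell, Cdk1, Cdk4, Cdk5, Ccnb1 and Top2a, against 20.7% and 14.4% of all tested probe sets. Ccnd1 was called in 10 of 21 alternatives and Rbl2 in 8 of 21, and the falls in at least 14. Ccnb1, the mitotic cyclin B1, averaged 109 ± 22.4 in Ven100, 398 ± 27.6 in Ven21, 127 ± 21.7 in NonVen100 and 118 ± 0.0693 in NonVen21. It rose by 1.47 ± 0.24 with ventilation at 21% oxygen (adjusted p = 0.0075), and its interaction was -1.63 ± 0.34 (adjusted p = 0.0097). Cdk4, the kinase of the D-type cyclins, had an interaction of -0.63 ± 0.18 (adjusted p = 0.037, called in 10 of 19 alternatives). The lungs ventilated with 21% oxygen, where Pcna, Ccnb1 and Ccng1 were highest, are also those with the T lymphocyte sum of 24400 to 26286, and the part of those cells was not tested.

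Ccnd1, Ccnd2 and Ccnd3 are the D-type cyclins, which drive entry into the cycle. Only Ccnd1 and Ccnd3 had called changes, and the genes were not tested against each other. Ccnd1 averaged 2320.4 ± 4.19 in Ven100, 1821 ± 10.0 in Ven21, 1604 ± 33.5 in NonVen100 and 2139 ± 7.28 in NonVen21. Ccnd3 averaged 3480.1 ± 53.1 in Ven100, 2908 ± 63.1 in Ven21, 2189 ± 198 in NonVen100 and 2979 ± 32.7 in NonVen21. Both rose with ventilation at 100% oxygen, by 0.52 ± 0.11 (adjusted p = 0.012) for Ccnd1 and by 0.66 ± 0.11 (adjusted p = 0.0061) for Ccnd3. Their interactions were 0.75 ± 0.15 (adjusted p = 0.0084) and 0.70 ± 0.16 (adjusted p = 0.014). Ccnd2, with means of 1086 ± 708 in Ven100, 1451 ± 39.1 in Ven21, 1529 ± 27.7 in NonVen100 and 1407 ± 481 in NonVen21, passed no test. Its difference for ventilation with 100% oxygen was -0.64 ± 0.40 (adjusted p = 0.28) and its interaction -0.72 ± 0.57 (adjusted p = 0.37). Over the alternatives the difference for ventilation with 100% oxygen ranged from -1.44 to 0.05. Ccnd2 is named after its values were seen, since the named genes rule does not take it. That rule does not take Cdk1, Cdk5, Top2a, Mcm6 or Rbl2 either, which are named above with the counts of calls they belong to.

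The comparisons of NonVen21 with Ven21 and with NonVen100 line up with the lot line as described for Gadd45a. Ventilation with 100% oxygen and oxygen under ventilation line up with it in part. Letter a of Ven100 and array B of its letter b carry the line, and no array of NonVen100 or Ven21 does. The interaction lines up in part too, since it sets Ven100 and NonVen21 against Ven21 and NonVen100. Both together lines up only through array A of that letter b, which lacks the line. In the fit with that line as a block, which also keeps the 9 arrays apart, 159 probe sets were called for the interaction, against 1439 in the fit of 8 samples without a block. For both together the counts were 840 and 761, for ventilation with 100% oxygen 477 and 1413, and for oxygen under ventilation 898 and 1841. The block fit counts arrays A and B of the same letter as separate units and estimates the block through Ven100 alone. These counts therefore do not measure the part of the lot line by itself.

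**Figure D4:**
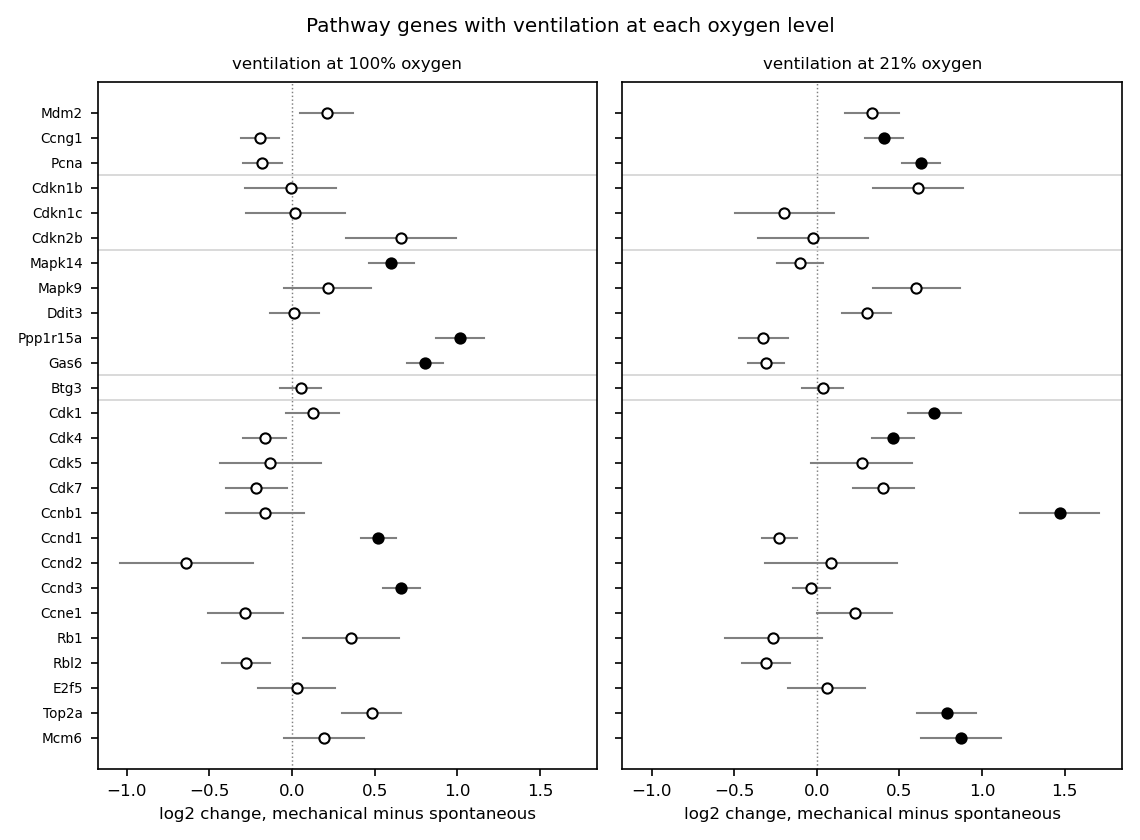
Log2 change with ventilation, mechanical minus spontaneous (horizontal axis), at 100% oxygen (left) and 21% oxygen (right) for the 26 tested genes of the 5 lists, separated by grey lines. Bars are standard errors and filled points are called changes; Ppp1r15a, Gas6, Ccnd3, Mapk14 and Ccnd1 are filled on the left, and Ccnb1 and Pcna are among those filled on the right.

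The genes most like Gadd45a over the 8 samples were sought by Pearson r of log2 levels against its brightest probe set, L32591mRNA_g_at, among 2612 probe sets of other genes with an SD of at least 0.3. The 5 highest were Psat1 (r = 0.95), an enzyme of serine synthesis, Acsl1 (r = 0.94), which activates fatty acids, Selp (r = 0.93), which encodes the endothelial and platelet adhesion molecule P-selectin, Odc1 (r = 0.91), the first enzyme of polyamine synthesis, and Lypd8l1 (r = 0.90). Odc1 averaged 1274 ± 95.6 in Ven100 and 1387 ± 204 in Ven21, against 911 ± 101 in NonVen100 and 586 ± 143 in NonVen21. Selp averaged 719 ± 32.5 in Ven100 and 730 ± 90.4 in Ven21, against 552 ± 5.15 in NonVen100 and 378 ± 11.8 in NonVen21. Psat1 averaged 643 ± 243 in Ven100 and 632 ± 65.0 in Ven21, against 399 ± 41.2 in NonVen100 and 345 ± 10.0 in NonVen21.

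The genes most like Btg1 by the same rule were Arc (r = 0.93), Cd9 (r = 0.88), Atp6v0c (r = 0.87), Ube2b (r = 0.84) and Ppib (r = 0.82). Each had its lowest mean in Ven100, as Cd9, a tetraspanin, shows with 6518 ± 182 in Ven100, 8581 ± 694 in Ven21, 10681 ± 2429 in NonVen100 and 10923 ± 2102 in NonVen21. That group also had the lowest 99th percentiles of intensity given above, and the part of this in the Btg1 pattern was not tested. The SD of L26268_at was 0.12 and that of L32591mRNA_g_at 0.22, both under the 0.3 asked of the candidates. Genes as flat as Btg1 were therefore not searched. Arc was dim, averaging 96.7 units in Ven100 and 174 in NonVen21, near the filter limit of 112 units. With 8 samples in 4 groups, high r values among 2612 candidates are a description only.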

How the data were processed

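Total RNA from rat lung was measured on 9 Affymetrix arrays of 8 samples in 4 groups. The values are linear intensities as deposited by the authors in the series table; the scanner software and its settings are not given in the sources used here. Each array's trimmed mean (2% at each end) is about equal, so the deposited intensities carry a scaling to a common level, and 18.4% to 19.9% of values are at or below 0. Array data have no read depth, and 2 samples per group limit the precision.

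Probe sets were named from a platform annotation table: 7006 carried 1 symbol, 308 several and 1426 none or no listing, and 6985 of the first were matched by gene number. Values below 0 were set to 0, 40 was added and log2 taken; the arrays A and B of one sample were averaged; 59 control probe sets and the 40% with the lowest mean were left out. Group means over 8 samples (4 residual degrees of freedom) were fitted with limma 3.58.1 in R 4.3.3 (lmFit, eBayes with trend), Benjamini-Hochberg adjustment running over the 5244 tested probe sets of each contrast. The code was tested on simulated data. Figures used matplotlib 3.10.9 in Python 3.11.15.

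The members and lists were chosen with earlier results of these data known. Every member probe set was named; a member was led by its brightest probe set, and a listed gene was represented by its own. Listed genes called for both together or in the interaction were named, at most 5 a list by smallest p, besides Mdm2, Ccng1, Cdkn1b and Btg3. Ccnd2, Cdk1, Cdk5, Top2a, Mcm6 and Rbl2 were named outside this rule. One listed gene and a motif are not reported here. Deviations of samples with the same letter correlated between -0.13 and 0.07 over the 6 group pairs, so the letters were not taken to pair samples. Alternatives changed normalization, offset, filter, use of the 2 arrays, blocks, variance trend, samples and threshold; fits within arrays with or without the lot line were added after the data were seen.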

Additional observations from a re-analysis of the deposited data

How the results depend on the processing

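The number of member probe sets called, in the order both together, interaction, oxygen under ventilation, oxygen under spontaneous breathing, ventilation with 100% oxygen and ventilation with 21% oxygen, was 2, 0, 0, 0, 3 and 2. It became 0, 0, 1, 0, 1 and 3 with quantile normalization, 2, 0, 2, 0, 0 and 3 with cyclic loess, 0, 0, 0, 0, 0 and 1 with no filter, and 2, 0, 0, 0, 2 and 2 with the lowest 60% left out. With array A only it was 1, 0, 1, 0, 2 and 2, with no variance trend 1, 0, 0, 0, 3 and 1, and at a threshold of 0.10 2, 0, 1, 2, 3 and 4. Fits of only the groups compared gave 0 for both together, 1 and 0 for oxygen and 3 and 0 for ventilation. With the lot line as a block and the 9 arrays kept apart it was 2, 0, 0, 0, 0 and 0; within arrays with that line both together gave 0, and within arrays without it oxygen under ventilation gave 1 and ventilation with 100% oxygen gave 0. With array B only and with an offset of 8 it stayed at 2, 0, 0, 0, 3 and 2, and with an offset of 80 it was 2, 0, 0, 0, 3 and 3.

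With the letter as a replicate block the counts were 1 for both together, 3 for ventilation with 100% oxygen and 1 for ventilation with 21% oxygen, and 0 for the other 3 comparisons; the samples share only a letter.

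Leaving out 1 sample at a time, with the lone sample assumed to vary like the other groups, gave 0 to 1 calls for both together, 0 to 0 for the interaction, 0 to 1 for oxygen under either way of breathing, 0 to 3 for ventilation with 100% oxygen and 0 to 2 for ventilation with 21% oxygen. The count for ventilation with 100% oxygen was 0 without either sample ventilated with 100% oxygen or without letter b of spontaneous breathing with 100% oxygen, and 1 without its letter a. The count for ventilation with 21% oxygen was 0 without either sample ventilated with 21% oxygen or without letter a of spontaneous breathing with 21% oxygen. The count for both together was 0 without letter a of either group. No called member changed its sign in any alternative; the causes of lost calls were not tested.

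Over all probe sets the main counts moved too: with no filter 796 against 1413 for ventilation with 100% oxygen, 490 against 760 with 21%, 397 against 761 for both together and 540 against 879 for oxygen under spontaneous breathing. In the fit with that block and 9 arrays they were 477, 106 and 128 for the first, the second and the last of these, and 898 against 1841 for oxygen under ventilation. Calls higher and lower for oxygen under ventilation were 1085 and 756, and 816 and 864 after quantile normalization.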
